A study of Mus musculus with 2 samples.

Results

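The part of the transcriptome described here was the integrated stress response and its secreted output Gdf15, measured in F4/80+CD11b+ cells sorted from mouse alveolar bone. The members were the rows of 9 gene symbols, Ddit3, Gdf15, Atf4, Trib3, Sesn2, Chac1, Asns, Hspa5 and Xbp1, of 27998 genes in the count tables, and each of the 9 was found in both tables. They were chosen from measured values, namely the lower counts of Ddit3 and Gdf15 in the library from moved teeth, so the comparison of those genes between the libraries is a description and carries no test. One library came from control bone without force and the other from bone after orthodontic tooth movement (OTM), in which a coil spring pulled the left first molar forward for a week. Both came from 8-week-old male C57/B6 J mice, freed with a warm collagenase digestion, and neither group carried an allele, transgene or drug. With 1 library per condition there was no replicate, the methods give the number of mice divided between the groups but not how many went into each library, and library and condition cannot be told apart. Intervals below are 95% intervals that cover counting error only, and no p-value was computed.

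In the integrated stress response, kinases that sense amino acid shortage, heme shortage, viral RNA or misfolded protein phosphorylate eIF2alpha, which lowers translation in general and favours translation of ATF4. ATF4, a bZIP transcription factor, then drives genes for amino acid supply and a second bZIP factor, CHOP, encoded by Ddit3. The unfolded protein response of the endoplasmic reticulum shares one of those kinases, PERK, and has further arms in which IRE1 splices the Xbp1 messenger RNA and ATF6 is cleaved, and both raise chaperones such as BiP, encoded by Hspa5. GDF15 is a stress-induced cytokine of the TGF-beta family whose receptor, GFRAL, is found in the hindbrain. UMI counts report the amount of messenger RNA and not phosphorylation, splicing of Xbp1 or translation of Atf4.

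On GRCm38 in GENCODE vM21, the members are protein-coding genes on 7 chromosomes. Ddit3 (ENSMUSG00000025408) lies at chr10:127290774-127296288 on the plus strand and Gdf15 (ENSMUSG00000038508) at chr8:70629393-70632456 on the minus strand. Hspa5 (ENSMUSG00000026864) lies at chr2:34771970-34777547 and Xbp1 (ENSMUSG00000020484) at chr11:5520659-5525893, both on the plus strand. Atf4 (ENSMUSG00000042406) lies at chr15:80255184-80257541 and Chac1 (ENSMUSG00000027313) at chr2:119351229-119354381 on the plus strand. Trib3 (ENSMUSG00000032715) at chr2:152337422-152344032, Sesn2 (ENSMUSG00000028893) at chr4:132492032-132510501 and Asns (ENSMUSG00000029752) at chr6:7675169-7693254 are on the minus strand. A further GENCODE gene named Ddit3 overlaps the first on the same strand, while the tables hold 1 row of that name. Mars overlaps Ddit3 on the opposite strand, with 28 control and 38 OTM UMIs in monocyte/macrophage-like cells. Gm12981 overlaps Sesn2 on the same strand, so reads in the stretch that Gm12981 and Sesn2 share may have been split or dropped.

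The 250 bases before the RefSeq start (GRCm38.p6) are shown for 4 members whose differences between the libraries are described most, Ddit3 and Gdf15, lower in OTM, and Hspa5 and Xbp1, higher in OTM, read 5' to 3' along the gene, with matches to the searched motifs in capitals.
Ddit3, chr10:127290543-127290792, plus strand: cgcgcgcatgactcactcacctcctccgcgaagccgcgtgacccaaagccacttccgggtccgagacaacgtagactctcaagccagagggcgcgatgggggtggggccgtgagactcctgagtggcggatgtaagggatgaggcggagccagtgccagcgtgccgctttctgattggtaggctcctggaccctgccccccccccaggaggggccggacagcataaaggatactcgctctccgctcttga
Gdf15, chr8:70632457-70632706, minus strand: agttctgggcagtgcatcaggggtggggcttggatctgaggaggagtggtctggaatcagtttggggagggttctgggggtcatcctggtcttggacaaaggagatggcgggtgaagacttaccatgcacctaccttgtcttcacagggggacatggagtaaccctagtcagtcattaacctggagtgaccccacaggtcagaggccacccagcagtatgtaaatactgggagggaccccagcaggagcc
Hspa5, chr2:34771840-34772089, plus strand: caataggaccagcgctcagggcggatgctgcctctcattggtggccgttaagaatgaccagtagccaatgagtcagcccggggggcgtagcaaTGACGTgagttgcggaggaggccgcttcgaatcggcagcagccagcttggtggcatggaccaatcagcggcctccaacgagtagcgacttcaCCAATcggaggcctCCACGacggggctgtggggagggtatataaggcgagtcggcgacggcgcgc
Xbp1, chr11:5520391-5520640, plus strand: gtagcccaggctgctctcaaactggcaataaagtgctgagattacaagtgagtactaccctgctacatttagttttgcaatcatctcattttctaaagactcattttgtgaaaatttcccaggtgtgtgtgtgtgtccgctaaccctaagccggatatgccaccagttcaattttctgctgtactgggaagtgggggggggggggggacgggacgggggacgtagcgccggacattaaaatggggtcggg
Motifs were searched on both strands of the 300-base RefSeq windows that run to 50 bases past the start, in 32851 promoters, of which 10 belonged to the 9 members. The C/EBP-ATF response element TGATGNAA was in 3.97% of all promoters and in those of 3 members, Asns, Chac1 and Trib3. The endoplasmic reticulum stress element, CCAAT and CCACG with 9 bases between, was in 0.119% of promoters and in that of Hspa5. There it began 65 bases before the start, and a TGACGT core, held by 7.51% of promoters, began 157 bases before it. No 2 of these matches overlapped.
The C/EBP-ATF response elements of Asns, Chac1 and Trib3 are shown in 30-base windows, with the match in capitals. Sites outside the searched windows were not looked for.
Asns, chr6:7693214-7693243, minus strand: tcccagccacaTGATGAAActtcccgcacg
Chac1, chr2:119351038-119351067, plus strand: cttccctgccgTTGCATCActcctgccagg
Trib3, chr2:152344028-152344057, minus strand: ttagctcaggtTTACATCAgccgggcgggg
The matches in Chac1 and Trib3 lie on the strand opposite the gene, and the one in Trib3 begins 14 bases past the start. The windows of Ddit3, Gdf15, Atf4, Sesn2 and Xbp1 held none of the 3 motifs.

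The control library kept 2444 of 2863 barcodes with 10728381 UMIs, a median of 3675.5 per cell, and the OTM library kept 1255 of 2058 barcodes with 7787159 UMIs, a median of 6053. The cells left out, for fewer than 200 genes per 1000 UMIs or over 5% mitochondrial UMIs, held 8713574 UMIs in OTM, more than the kept OTM cells, so a filter of at least 200 genes per cell is given beside results it moved. The pathway lists below were computed with the main filter alone, so whether the other filter moves them is not known. The libraries shared 6 barcode sequences. Clusters, made without the members, fell into monocyte/macrophage-like cells (1131 control, 755 OTM) and neutrophil-like cells (922 and 383), named from marker genes. Neutrophil-like cells, at 37.7% of control and 30.5% of OTM cells, go against the macrophage label of the series, and Adgre1, which encodes F4/80, stood at 17.6 and 26.7 CPM in them against 111 and 128 CPM in monocyte/macrophage-like cells (CPM, UMIs of a gene per 1000000 UMIs). With at least 200 genes per cell, 1188 of 2835 control and 923 of 2052 OTM cells were neutrophil-like. Which library held the larger share of them thus depended on the filter. B cell-like (41 control cells), cycling and granulocyte progenitor-like clusters were kept apart. Control cluster 5, of 155 cells led by interferon genes such as Irf7 and Ly6a, was left without a class. It held Csf1r at 196 CPM and S100a8 at 5932 CPM, against 185 and 8667 CPM in control cluster 0. At resolution 1.0 a cluster with such leading genes was named classical monocyte-like. The main monocyte/macrophage-like ratios leave cluster 5 out, with its Ddit3 at 88.6 CPM and Xbp1 at 108 CPM. A resident macrophage-like cluster led by C1qa, C1qb and C1qc, with 54 cells, formed in the control library alone. The classical monocyte-like class was control cluster 0, led by Mt2, Cxcl3 and Vcan, and OTM clusters 0, led by Saa3 and Fabp7, and 1, led by Rnase6, so its leading genes differed between the libraries.

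Ddit3 encodes CHOP, the bZIP factor induced late in an unresolved stress response. In control monocyte/macrophage-like cells 332 Ddit3 UMIs gave 67.3 CPM (60.3 to 75.0), and in OTM 140 UMIs gave 27.0 CPM (22.7 to 31.9). The OTM level was 2.49-fold lower (ratio 0.401, 0.327 to 0.490), a description, since Ddit3 was chosen for this difference. The paper lists Ddit3 among the genes unique to its OTM group, the other direction. Its comparison combined the samples by another method and was not repeated here. In neutrophil-like cells the level was 94.8 CPM in control (84.3 to 106) and 76.7 CPM in OTM (63.3 to 92.1). There the ratio was 0.809 with an interval of 0.647 to 1.01, which included 1. With at least 200 genes per cell the neutrophil-like cells held 75.4 CPM in control and 40.7 CPM in OTM, a ratio of 0.540 (0.459 to 0.634), so the size in these cells depended on the cells kept. In monocyte/macrophage-like cells that filter gave 69.0 and 31.1 CPM, a ratio of 0.4502 (0.383 to 0.528).

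Within the classes present in both libraries, Ddit3 was lower in OTM in classical monocyte-like cells (41.0 against 19.3 CPM, ratio 0.471, 0.347 to 0.636), which carry Ly6c2 and Ccr2 and enter tissue from blood. It was lower in nonclassical monocyte-like cells (160 against 48.2 CPM, ratio 0.302, 0.171 to 0.504) and in cycling cells (72.5 against 19.0 CPM, ratio 0.262, 0.141 to 0.453). In mature neutrophil-like cells it was 138 against 89.8 CPM (ratio 0.650, 0.489 to 0.854). That class joined control cluster 1 (114 CPM, 94.7 to 136) with the interferon-led control cluster 6 (195 CPM), and in OTM it was cluster 2 alone (89.8 CPM, 70.0 to 113), whose interval overlapped that of cluster 1. The intervals included 1 in MHC class II-high cells (63.1 against 52.6 CPM, 0.569 to 1.21), immature neutrophil-like cells (51.7 against 62.5 CPM, 0.821 to 1.76) and granulocyte progenitor-like cells (9.30 against 16.1 CPM, 0.336 to 11.1). The MHC class II-high cluster held C1qa at 25.7 CPM in control and 276.5 CPM in OTM, where C1q-bearing cells formed no cluster of their own, and their part in the values of this class, for Ddit3 and the other members, was not tested. The nonclassical clusters held S100a8 at 71102 CPM in control and 38003 CPM in OTM, against 8667 CPM in the control classical cluster and 10163 and 4206 CPM in the OTM ones, and the part of that neutrophil transcript in their Ddit3 level was not tested.

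**Figure D1:**
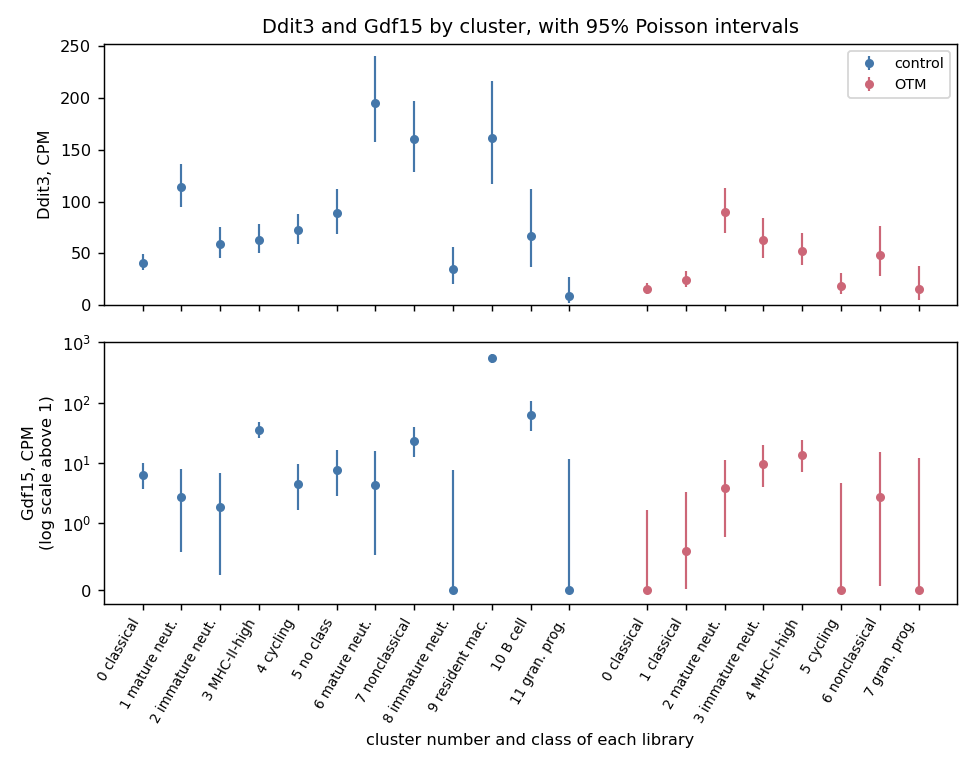
Level of Ddit3 (upper panel) and Gdf15 (lower panel, log scale above 1) in each cluster of the control (blue) and OTM (red) library, in CPM; points are sums over the cluster's cells and bars 95% Poisson intervals. Ddit3 was highest in control clusters 6, 9 and 7 (195, 161 and 160 CPM), and Gdf15 stood at 539 CPM in control cluster 9, the resident macrophage-like cells.

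By cluster, control Ddit3 levels ran from 9.30 CPM in granulocyte progenitor-like cells (3 UMIs) to 195 CPM (157 to 240) in cluster 6, mature neutrophil-like cells led by the interferon-induced genes Ifit3 and Isg15. Cluster 9, the resident macrophage-like cells, at 161 CPM (117 to 216) and cluster 7, the nonclassical monocyte-like cells, at 160 CPM (129 to 196) followed, and the intervals of these 3 overlapped. Cluster 1, the other mature neutrophil-like cells, stood at 114 CPM (94.7 to 136). In OTM the order ran from 15.6 CPM (10.9 to 21.8) in cluster 0, classical monocyte-like cells, to 89.8 CPM (70.0 to 113) in cluster 2, mature neutrophil-like cells. The interval of OTM cluster 2 overlapped that of OTM cluster 3, immature neutrophil-like cells, at 62.5 CPM (45.6 to 83.7).

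Ddit3 was thinly spread: 70.2% of the 557 control cells with a Ddit3 UMI held 1, and the highest count was 6 in control and 4 in OTM. With each cell thinned to 1500 UMIs, 8.75% of control (7.17 to 10.6) and 4.11% of OTM (2.81 to 5.78) monocyte/macrophage-like cells had a Ddit3 UMI. Without thinning the shares were 19.8% and 14.97%, at median depths of 4016 and 7050 UMIs. The thinned shares of neutrophil-like cells were 14.9% (12.6 to 17.3) and 12.8% (9.62 to 16.6), and 23.4% and 22.2% without thinning. The lowest thinned shares were 0 of 36 granulocyte progenitor-like cells in control, which allows a share of cells with a UMI of up to 8.33% by a floor of 3 cells (Clopper-Pearson upper limit 9.74%), and 1 of 71 cycling cells in OTM.

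The 5 genes whose log2 levels over the 20 clusters of both libraries were most like those of Ddit3 were Klf2 (Pearson r 0.879), Gadd45g (0.871), Egr1 (0.867), Zfp622 (0.852) and Fos (0.842), of 3137 genes compared. These clusters share libraries and depth, so the values describe them and no more. Egr1 and Fos are immediate early genes that also respond to tissue digestion. The summed level of the 20 immediate early and dissociation genes was 12229 CPM in control and 14850 CPM in OTM monocyte/macrophage-like cells. In these cells 9 of the 20 were at least 1.5-fold lower and 3 at least 1.5-fold higher in OTM, against 19.1% and 8.61% of the 8971 genes with at least 20 UMIs, and their part in the Ddit3 result was not tested. Hspa1b and Hspa1a, inducible cytosolic chaperones of the heat shock response, were at 16.8 and 71.4 CPM in control against 2.31 and 18.3 CPM in OTM. In neutrophil-like cells the sum was 9305 and 13343 CPM, and the genes ran from Hsph1, at 16.0 against 1.33 CPM, to Socs3, at 67.2 against 249 CPM. In monocyte/macrophage-like cells Hspa8 and Ier3 stood higher in OTM, at 3930 against 1920 CPM and 1849 against 915 CPM.

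Gdf15 was found in few cells. The control library held 257 Gdf15 UMIs in 51 of 2444 cells, and the OTM library held 24 in 5 of 1255 cells. In control, 13 cells with 5 or more UMIs held 77.8% of them, and the highest held 38. In OTM, the 5 cells held 12, 7, 3, 1 and 1 UMIs. UMIs of 1 cell are not independent, so counting intervals for Gdf15 are too narrow as a measure of the spread between cells.

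In monocyte/macrophage-like cells Gdf15 stood at 45.6 CPM in control (39.9 to 52.0; 225 UMIs in 33 cells) and 2.70 CPM in OTM (1.48 to 4.53; 14 UMIs in 3 cells), a 16.9-fold lower level (ratio 0.0592, 0.0318 to 0.101). Of the 225 control UMIs, 147 lay in 14 of the 54 resident macrophage-like cells, at 539 CPM (455 to 633). Without that cluster, chosen for this step after the levels were seen, the control level was 16.7 CPM (78 UMIs in 19 cells) and the OTM level 6.20-fold lower (ratio 0.161, 0.0843 to 0.287). MHC class II-high cells, which present antigen, held 48 control UMIs in 6 cells, 24 and 19 of them in 2 cells, and 12 OTM UMIs in 1 cell. Classical monocyte-like cells held 17 UMIs in 7 of 646 control cells and 1 UMI among 563 OTM cells. In neutrophil-like cells 7 UMIs lay in 7 of 922 control cells (2.24 CPM), and 10 UMIs in 2 of 383 OTM cells (6.67 CPM). That ratio of 2.98 (1.02 to 9.21) turned with the cells kept, since at least 200 genes per cell left 6 control and 3 OTM UMIs, 1.15 and 0.479 CPM.

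After thinning to 1500 UMIs, 18.5% of control resident macrophage-like cells (9.25 to 31.4) had a Gdf15 UMI, against 0.759% of control neutrophil-like cells (0.306 to 1.56), at median depths of 4205 and 2690.5 UMIs before thinning. The thinned shares in classical monocyte-like (0.619%) and MHC class II-high (0.687%) cells were below that of neutrophil-like cells, and the one in nonclassical monocyte-like cells was 2.14% (0.444 to 6.13), so no difference from free RNA is read from these shares. Without thinning the resident macrophage-like share was 25.9%, the neutrophil-like 0.759%, the classical 1.08%, the MHC class II-high 2.06% and the nonclassical 4.29%. The counts per cell differed as well. Each control neutrophil-like cell with Gdf15 held 1 UMI, whereas 3 classical monocyte-like cells held 5, 4 and 4, 2 MHC class II-high cells held 24 and 19, and nonclassical monocyte-like cells held up to 3. A B cell-like cell held 12 UMIs.

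**Figure D2:**
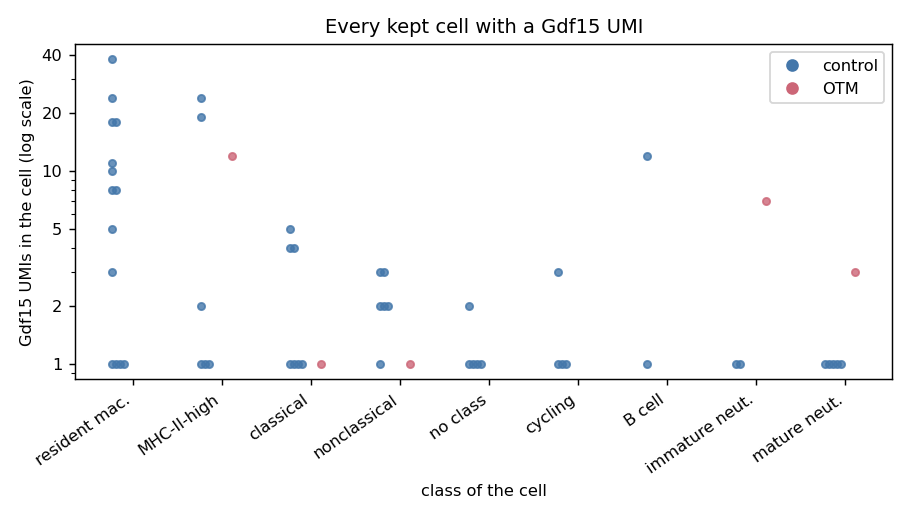
Gdf15 UMIs (log scale) in each kept cell that had one, by class of the cell, for control (blue, 51 cells) and OTM (red, 5 cells). The cells with the most UMIs were control resident macrophage-like cells, up to 38 UMIs in a cell.

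Since no OTM cluster was named resident macrophage-like, cells were also taken one by one by their own C1q transcripts. These encode the subunits of the complement initiator C1q and mark tissue macrophages. At least 3 UMIs of C1qa, C1qb and C1qc together were found in 68 control and 16 OTM cells, 2.78% and 1.27% of the kept cells, and 25 and 3 cells lay within 1 UMI of that minimum. The 68 control cells held 129 Gdf15 UMIs in 13 cells (19.1%, 10.6 to 30.5), and the 16 OTM cells held 0, which allows a share of cells with a UMI of up to 18.8% by a floor of 3 cells (Clopper-Pearson upper limit 20.6%). At this number of cells a difference in share was not detectable. Ddit3 in the same cells was 158 CPM in control (116 to 209) and 57.1 CPM in OTM (20.9 to 124). The sum of the 9 resident macrophage markers was 443 CPM in control and 210 CPM in OTM monocyte/macrophage-like cells, none of the 9 at 0. Without the cells of either library that held at least 3 C1q UMIs, the log2 ratio of Gdf15 in monocyte/macrophage-like cells was -2.86, beside -4.03 with them. The part of this cell type in the Gdf15 result was not tested further.

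Over the 20 clusters the genes most like Gdf15 were C1qb (r 0.815), Chka (0.801), Tsc22d2 (0.789), Fosb (0.788) and C1qc (0.788). Gdf15 stood at 539 CPM in control cluster 9 and next at 62.3 CPM in control cluster 10. How far these r values rest on cluster 9 alone was not tested. Ddit3 and Gdf15 had an r of 0.529 with each other, Ddit3 and Atf4 one of 0.718, and Ddit3 and Xbp1 one of -0.581. GFRAL and RET, the receptor and coreceptor of GDF15, had genes with 0 UMIs in both libraries.

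Atf4, the hub of the pathway and largely controlled by translation, stood at 150 CPM (139 to 161) in control and 117 CPM (108 to 127) in OTM monocyte/macrophage-like cells, a ratio of 0.779 (0.698 to 0.868). In neutrophil-like cells it was 146 CPM (133 to 160) and 132 CPM (114 to 152), and the ratio of 0.904 had an interval of 0.762 to 1.07. Atf4 varied less among clusters than Ddit3, from 101 to 213 CPM in control and from 70.6 to 139 CPM in OTM. Control resident macrophage-like cells had the highest level, 213 CPM (161 to 275).

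The further ATF4 targets among the members were sparse. Trib3, a pseudokinase that feeds back on ATF4, had 13 UMIs in control and 5 in OTM over all kept cells. Chac1, which degrades glutathione, had 10 UMIs in control (0.932 CPM) and 0 in OTM, 2.42-fold lower when 3 UMIs are taken as the floor over the library. The interval of its ratio ran from 0 to 0.615. In monocyte/macrophage-like cells (5 and 0 UMIs) that interval ran from 0 to 1.04 and included 1. Sesn2, a leucine sensor upstream of mTORC1, was 8.31 and 8.49 CPM in monocyte/macrophage-like cells, a ratio of 1.02 (0.652 to 1.60). In neutrophil-like cells Sesn2 was 11.2 CPM in control and 22.0 CPM in OTM, a ratio of 1.96 (1.18 to 3.25). Asns, asparagine synthetase, was 3.85 and 6.36 CPM in monocyte/macrophage-like cells, a ratio of 1.65 (0.912 to 3.07), and 9.61 and 12.7 CPM in neutrophil-like cells, 1.32 (0.702 to 2.42). In control, immature neutrophil-like cells (15.3 CPM) and granulocyte progenitor-like cells (24.8 CPM) held more Asns than mature ones (3.86 CPM), and the mature OTM cells were at 14.1 CPM (ratio 3.66, 1.24 to 12.04; 6 and 11 UMIs). With at least 200 genes per cell the Asns ratio was 1.79 (1.19 to 2.77) in monocyte/macrophage-like and 1.73 (1.33 to 2.27) in neutrophil-like cells, both above 1.

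Hspa5, which encodes the chaperone BiP of the endoplasmic reticulum, was higher in OTM. Its level was 470 CPM (451 to 489) in control and 673 CPM (651 to 696) in OTM monocyte/macrophage-like cells. The ratio of 1.43 (1.36 to 1.51) there was 1.31 (1.25 to 1.37) with at least 200 genes per cell. In neutrophil-like cells Hspa5 was 173 CPM (159 to 189) and 337 CPM (308 to 368). That ratio of 1.94 (1.72 to 2.20) was 1.17 (1.07 to 1.28) with at least 200 genes per cell. The classical monocyte-like ratio was 1.73 (1.61 to 1.86) and the MHC class II-high one 1.32 (1.18 to 1.47). In nonclassical monocyte-like cells the interval included 1 (1.14, 0.933 to 1.397), and granulocyte progenitor-like cells went the other way (539 against 421 CPM, ratio 0.780, 0.617 to 0.984). Control resident macrophage-like cells had the highest Hspa5 level of any cluster, 953 CPM (841 to 1076). After thinning, 44.9% of control and 59.6% of OTM monocyte/macrophage-like cells had an Hspa5 UMI, against 19.96% and 34.7% of neutrophil-like cells. The shares without thinning were 76.2% and 93.4%, against 34.8% and 55.4%.

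Xbp1, the substrate of IRE1, was higher in OTM as well. Its level was 55.8 CPM (49.4 to 62.8) in control and 84.9 CPM (77.1 to 93.2) in OTM monocyte/macrophage-like cells. The ratio of 1.52 (1.31 to 1.78) there was 1.30 (1.15 to 1.48) with at least 200 genes per cell. In neutrophil-like cells Xbp1 was 34.6 CPM (28.4 to 41.8) and 74.0 CPM (60.9 to 89.2). That ratio of 2.14 (1.63 to 2.82) was 2.28 (1.90 to 2.75) with at least 200 genes per cell. Granulocyte progenitor-like cells showed the largest Xbp1 ratio of the 7 classes in both libraries, 62.0 CPM in control and 205 CPM in OTM (3.31, 1.98 to 5.78). These clusters held S100a8 at 37699 CPM in control and 108534 CPM in OTM, whose part in that ratio was not tested. In MHC class II-high (1.22, 0.838 to 1.77) and cycling cells (1.12, 0.826 to 1.499) the intervals included 1.

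**Figure D3:**
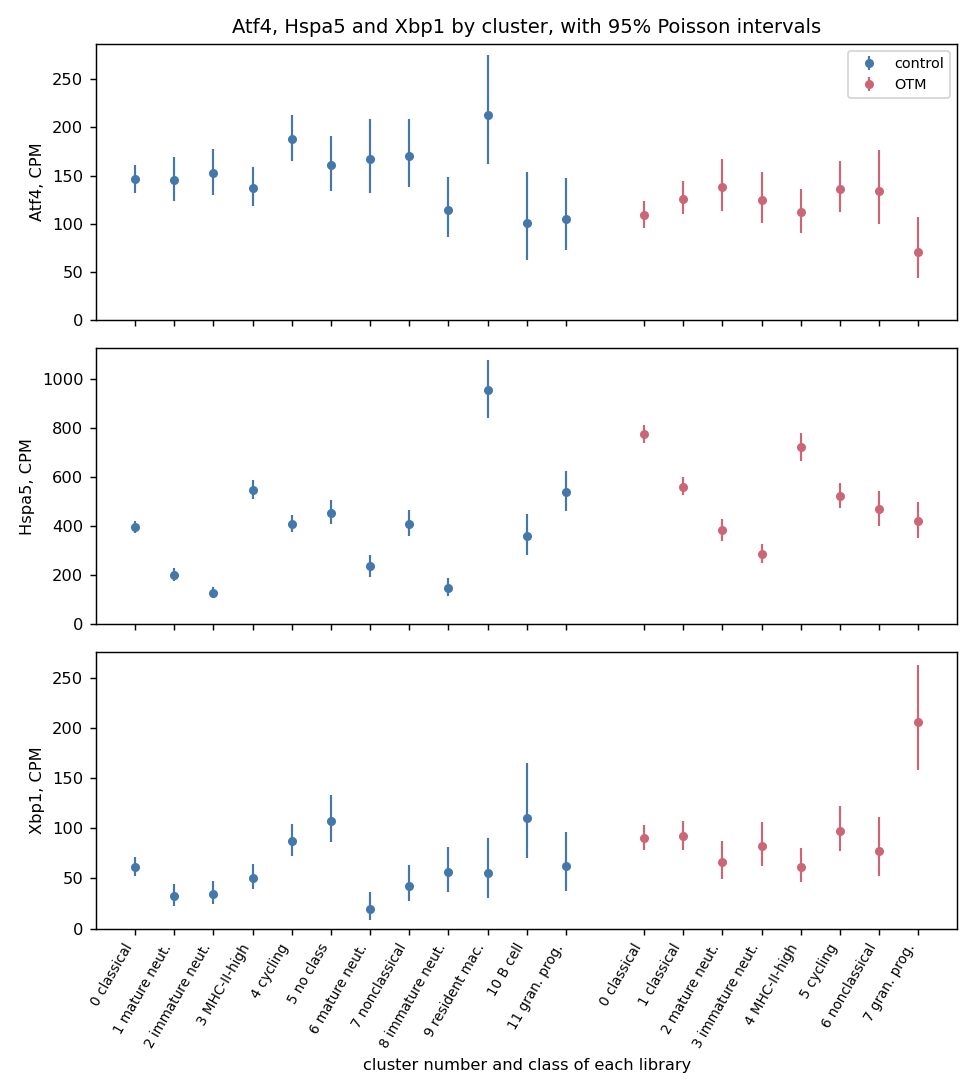
Levels of Atf4, Hspa5 and Xbp1 in each cluster of the control (blue) and OTM (red) library, in CPM on linear axes from 0, with 95% Poisson intervals. Hspa5 ran from 129 CPM in control immature neutrophil-like cells to 953 CPM in control resident macrophage-like cells, and Xbp1 was highest in OTM granulocyte progenitor-like cells at 205 CPM.

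Counted over the members, 7 of the 9 reached 20 UMIs over both libraries in monocyte/macrophage-like cells. Ddit3 and Gdf15 were at least 1.5-fold lower in OTM, where 19.1% of the 8971 genes with as many UMIs were, and since the rule used that contrast nothing is read from the count. Asns and Xbp1 were at least 1.5-fold higher, against 8.61% of genes, and the interval of Asns included 1. With at least 200 genes per cell the Xbp1 ratio in these cells was 1.30, below 1.5, and the Asns ratio 1.79. In neutrophil-like cells 6 members reached the minimum. None was at least 1.5-fold lower, against 20.9% of 6675 genes, and 3, Sesn2, Hspa5 and Xbp1, were at least 1.5-fold higher, against 13.7%. These counts depended on the filter. With at least 200 genes per cell Ddit3 (ratio 0.540) passed 1.5-fold lower and Asns (1.73) passed 1.5-fold higher, while Hspa5 (1.17) did not. Sesn2 (1.62) and Xbp1 (2.28) stayed past 1.5-fold, and the shares of all genes were not computed with that filter. With the main filter, the median log2 ratio of all genes with at least 20 UMIs was -0.12 in monocyte/macrophage-like and -0.08 in neutrophil-like cells. TMM scaling would add 0.14 and 0.05 to each log2 ratio.

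**Figure D4:**
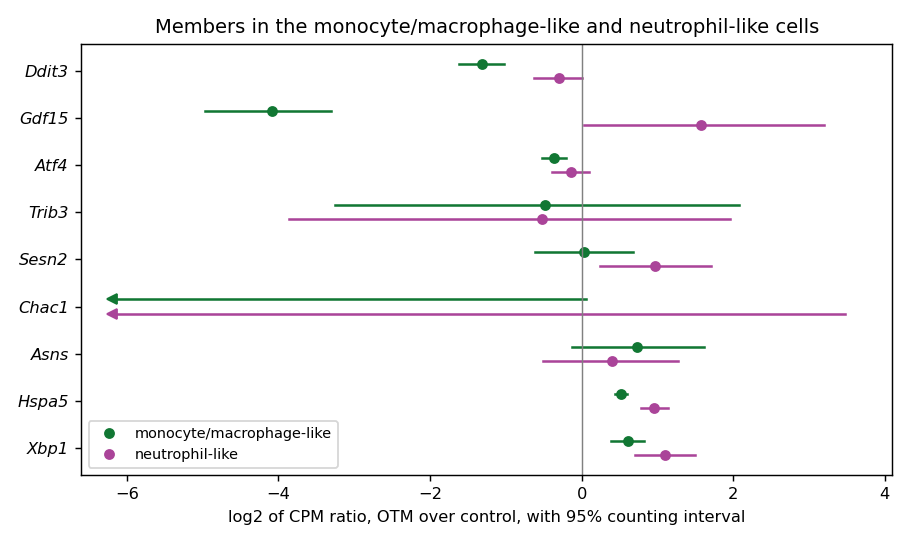
Ratio of OTM over control CPM on a log2 scale for the 9 members in monocyte/macrophage-like (green) and neutrophil-like (purple) cells; bars are 95% counting intervals and arrowheads mark 0 UMIs in OTM. Ddit3 and Gdf15 lay left of 0 in monocyte/macrophage-like cells, while Hspa5 and Xbp1 lay right of it in both.

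Upstream of ATF4, 2 of the 4 eIF2alpha kinase genes were at least 1.5-fold lower in OTM monocyte/macrophage-like cells, against 19.1% of the 8971 genes. The list had a median log2 ratio of -0.89. Eif2ak3, which encodes PERK, was 10.7 CPM in control and 4.05 CPM in OTM, a ratio of 0.377 (0.216 to 0.635). Eif2ak4, which encodes the amino acid sensor GCN2, was 3.85 and 0.964 CPM (19 and 5 UMIs). Eif2ak1, which encodes the heme-regulated kinase, was 7.91 and 10.0 CPM, a ratio of 1.27 (0.821 to 1.97). Ppp1r15a, which encodes GADD34, the stress-induced subunit of the eIF2alpha phosphatase, was 231 CPM in control and 359 CPM in OTM, a ratio of 1.55 (1.44 to 1.67). It was 76.9 and 171 CPM in neutrophil-like cells, a ratio of 2.22 (1.86 to 2.66), where Eif2b2, a subunit of eIF2B, had the smallest ratio among genes of the list with at least 50 UMIs, 0.660 (0.325 to 1.26). Eif2s3x, a subunit of eIF2, had the smallest ratio of its list in monocyte/macrophage-like cells, 0.614 (0.466 to 0.805). Of the 13 genes of that list 1 was past 1.5-fold in each direction there, against 19.1% lower and 8.61% higher of the 8971 genes. The median log2 ratio of the list was 0.10.

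Of 9 further stress-responsive transcription factors, mostly bZIP proteins, 3 were at least 1.5-fold lower and 1 higher in OTM monocyte/macrophage-like cells (median log2 ratio -0.17). The shares of the 8971 genes were 19.1% and 8.61%. Atf3, a stress-induced repressor, was 198 against 90.5 CPM (ratio 0.457, 0.409 to 0.511), and Batf3, a dendritic cell factor, 23.1 against 5.01 CPM (0.217, 0.136 to 0.334). In neutrophil-like cells 3 of 7 with enough UMIs were higher and 0 lower, against 13.7% and 20.9% of the 6675 genes. Nupr1 led at 17.9 against 52.7 CPM (2.94, 2.06 to 4.22), followed by Nfe2l2, which encodes NRF2, at 119 against 290.2 CPM (2.43, 2.11 to 2.797). There Atf3 was 65.6 and 55.4 CPM, with an interval of 0.646 to 1.09.

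The wider list of 40 ATF4 targets, amino acid transporters and biosynthetic enzymes, transfer RNA synthetases and others, had 28 genes with enough UMIs in monocyte/macrophage-like cells. Of these, 5 were at least 1.5-fold lower and 0 higher, against 19.1% and 8.61% of the 8971 genes. The median log2 ratio was -0.10 beside the -0.12 of the 8971 genes. Vegfa, an angiogenic growth factor, was lowest (75.0 against 17.4 CPM, ratio 0.231, 0.182 to 0.292), followed by the cationic amino acid transporter Slc7a1 (18.3 against 4.82 CPM, 0.264, 0.162 to 0.415). Ddit4, an inhibitor of mTORC1, had the largest ratio (38.7 against 54.2 CPM, 1.399, 1.16 to 1.69), and the cystine transporter Slc7a11 was 191 against 254 CPM (1.32, 1.22 to 1.44). In neutrophil-like cells 5 of 23 were lower and 5 higher, against 20.9% and 13.7% of the 6675 genes. Among targets with at least 50 UMIs the ratios ran from Vegfa (0.380, 0.285 to 0.501) to Ddit4 (2.47, 1.80 to 3.41).

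Targets of XBP1 and ATF6, the folding and degradation machinery of the endoplasmic reticulum, numbered 28 with enough UMIs in monocyte/macrophage-like cells. At least 1.5-fold differences were seen for 2 lower and 1 higher, against 19.1% and 8.61% of the 8971 genes. The median log2 ratio was 0.13. Hspa13, a chaperone of the HSP70 family, was 21.1 against 35.7 CPM (1.69, 1.32 to 2.17), Dnajb9, a BiP cochaperone, 42.4 against 56.3 CPM (1.33, 1.11 to 1.59), and Manf 216 against 283 CPM (1.31, 1.21 to 1.42). Hsp90b1, the other major chaperone of this compartment, was 376 against 317 CPM (0.844, with a lower bound of 0.789), and Canx, calnexin, 159 against 120 CPM (0.754, 0.678 to 0.838), so these chaperones stood lower in OTM where Hspa5 stood higher. Syvn1, a ubiquitin ligase of this compartment, had the smallest ratio, 0.644, with an interval of 0.352 to 1.16. In neutrophil-like cells 0 of 25 were lower and 5 higher (median 0.36), against 20.9% and 13.7% of the 6675 genes. The disulfide isomerases Txndc5 (9.29 against 28.7 CPM, 3.09, 1.88 to 5.13) and Pdia4 (11.5 against 28.7 CPM, 2.49, 1.56 to 3.99) had the largest ratios. Among targets with at least 50 UMIs Edem1 (54.1 against 43.4 CPM, 0.801, 0.592 to 1.07) had the smallest.

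**Figure D5:**
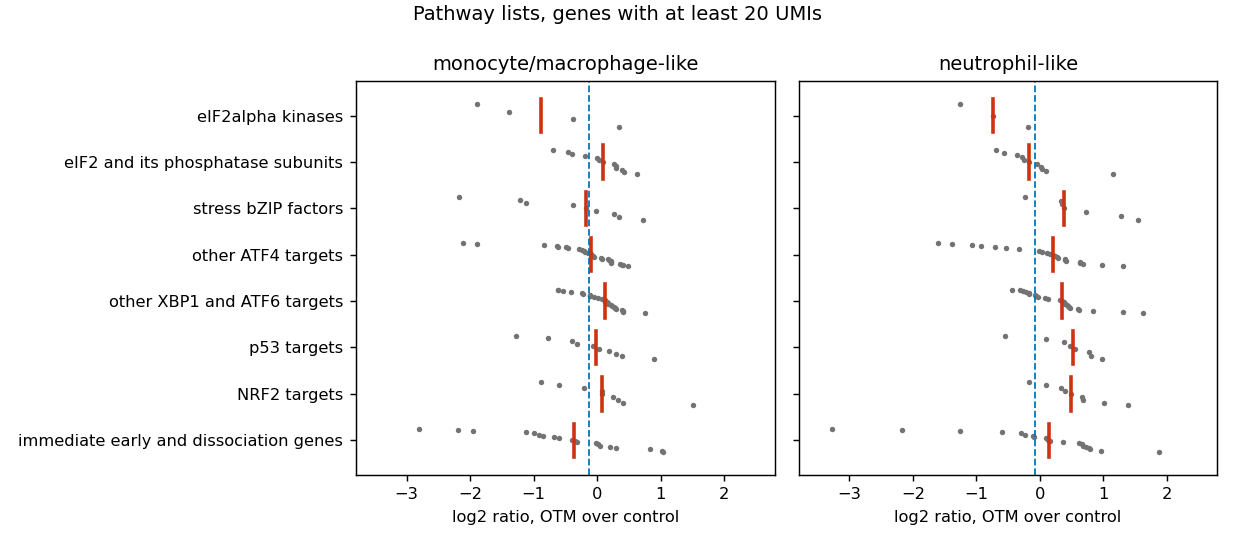
Log2 ratio of OTM over control for each gene with at least 20 UMIs over both libraries (grey points) in 8 pathway lists, in monocyte/macrophage-like (left) and neutrophil-like (right) cells; red bars are list medians and the dashed line is the median of genes with as many UMIs. The median of the eIF2alpha kinases lay at -0.89 on the left and -0.73 on the right, and that of XBP1 and ATF6 targets at 0.13 and 0.36.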

How the data were processed

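The authors sorted F4/80+CD11b+ cells, prepared 10x Genomics 3' v2 libraries and, per the labels, used Cell Ranger 3.0.0 with mm10 and Seurat 3.0.0. The deposited values are raw counts of UMIs per gene and barcode, without normalization. No reads were realigned. Barcodes were kept with at least 200 genes per 1000 UMIs, a literal reading of the methods that may stand for 200 genes per cell, and at most 5% mitochondrial UMIs. Each library was clustered alone (Seurat 5.3.0, R 4.3.3, 12 and 8 principal components, resolution 0.6) with the members and pathway lists left out of the variable features. A cluster was named "-like" from the marker list with the most genes among its 10 leading genes, at least 2, or otherwise from the myeloid list with the highest mean z-score, and was left unnamed where more of those genes belonged to another class. OTM cluster 0 had no own marker among its leading genes and OTM cluster 1 had 1, so both were named by z-score. Scrublet called 5 control and 12 OTM cells doublets, which were kept.

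UMIs were summed per cell group (Python 3.11.15, scipy 1.17.1, numpy 2.4.6, pandas 2.3.3). Levels have exact Poisson, shares Clopper-Pearson and ratios exact conditional binomial 95% intervals. Log2 ratios had 0.5 UMIs added. TMM factors came from edgeR 4.0.16 (scaling only). PCR copies were removed by UMI, but the intervals cover counting error only. The code was tested on simulated data. The members and gene lists were chosen with earlier results of these data known. Genes named were the members, genes of the pathway lists, with the smallest and largest ratios among those with at least 50 UMIs, and the 5 genes most like Ddit3 and Gdf15 over clusters of at least 30 cells. Alternatives covered the filter on cells, scaling, weighting, clustering, single-cell classing, doublets and composition.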

Additional observations from a re-analysis of the deposited data

Results flagged for a closer look

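Gdf15 had ratios on opposite sides of 1 in the main lineages. Its log2 ratio of OTM over control was -4.03 in monocyte/macrophage-like cells (225 and 14 UMIs) and 1.54 in neutrophil-like cells (7 and 10 UMIs). The difference was not tested, the neutrophil-like OTM UMIs lay in 2 cells, and with at least 200 genes per cell that value was -1.16.

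In the barcodes that the cell filter removed (419 control, 803 OTM), 3 members had OTM intervals above the control ones. Atf4 was 106 CPM in OTM and 88.9 CPM in control, Sesn2 10.3 and 4.62 CPM, and Xbp1 79.5 and 43.2 CPM. Ddit3 and Chac1 had OTM intervals below the control ones. Ddit3 was 31.0 CPM in OTM (27.4 to 34.9) and 43.2 CPM in control (36.9 to 50.2). Chac1 was 0.459 CPM (0.125 to 1.18) and 3.85 CPM (2.16 to 6.36).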

How the results depend on the processing

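The log2 ratios of Ddit3 and Gdf15 in the main lineages kept their sign in 47 of 50 alternative values, and 40 of the 50 stayed within the counting interval of the main value. The alternatives recount the same libraries, and the rule chose both genes for this contrast. The tally therefore describes the processing, and nothing about the conditions is read from it. With the classes found in both libraries weighted by their control shares, the values in monocyte/macrophage-like cells were -0.95 for Ddit3 and -1.85 for Gdf15. The control resident macrophage-like cluster has no OTM counterpart and drops out of that mean. Without that cluster Gdf15 was -2.59, and without cells holding at least 3 C1q UMIs -2.86, both alternatives chosen after seeing the data, as was adding control cluster 5. In neutrophil-like cells, at least 200 genes per cell gave -0.89 for Ddit3 and -1.16 for Gdf15, all deposited barcodes -0.86 and -0.89, and classing each cell by its own marker UMIs -0.73 and -0.77. The Gdf15 values thereby changed sign, on at most 10 UMIs a library in the main setting, and the cause was not tested. For the other 7 members, 162 of 173 alternative values stayed within the counting interval of the main value and 170 kept its sign. No paired analysis was possible because each condition had 1 library. Leaving out a library was not possible for the same reason. Depth limits Trib3 and Chac1 to at most 13 UMIs a library. Gdf15 had 24 UMIs in the kept OTM cells. In control monocyte/macrophage-like cells it had 78 UMIs outside the resident macrophage-like cluster. The thinned and unthinned shares stand side by side in the report.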

Other observations

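Other stress pathways that can raise Gdf15 were described from their own lists. Of the p53 targets, 10 had enough UMIs in monocyte/macrophage-like cells, 2 at least 1.5-fold lower and 1 higher in OTM, with a median log2 ratio of -0.02. These counts lay near the shares of the 8971 genes, 19.1% lower and 8.61% higher. Mdm2, the ubiquitin ligase that restrains p53, was 89.4 CPM in control and 167 CPM in OTM (ratio 1.86, 1.66 to 2.09), and Trp53inp1 8.52 and 3.47 CPM (0.408, 0.221 to 0.724). Of the NRF2 targets, 9 had enough UMIs, 2 lower and 1 higher, again near those shares, with a median of 0.08. Gclm, a subunit of the enzyme that starts glutathione synthesis, was 24.1 against 69.2 CPM (2.87, 2.33 to 3.56), while Gclc, the catalytic subunit, was 15.01 against 8.10 CPM (0.540, 0.361 to 0.799). In neutrophil-like cells 4 of 9 NRF2 targets were at least 1.5-fold higher and 0 lower, against 13.7% and 20.9% of the 6675 genes. The heme oxygenase Hmox1 led at 43.6 against 115 CPM (2.63, 2.09 to 3.32), and among NRF2 targets with at least 50 UMIs the smallest ratio was that of Osgin1 (1.07, 0.714 to 1.57). Of 8 p53 targets in neutrophil-like cells 3 were higher and 0 lower, against the same shares of all genes. The p53 targets with at least 50 UMIs ran from Bax (0.681, 0.510 to 0.8995) to Trp53inp1 (1.74, 1.12 to 2.69).

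After thinning to 1500 UMIs, Atf3 was found in 34.3% of the 99 control monocyte/macrophage-like cells with a Ddit3 UMI (25.1 to 44.6) and in 17.1% of the 1032 without (14.8 to 19.5). For Atf4 the shares were 22.2% (14.5 to 31.7) and 20.4% (18.0 to 23.0). In neutrophil-like control cells the Atf3 shares were 8.76% (4.61 to 14.8) and 7.13% (5.43 to 9.16). These are shares of cells of 1 library and carry no test.

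In the barcodes the cell filter removed, Asns stood at 21.1 CPM in control and 27.0 CPM in OTM, against 7.46 and 7.83 CPM in the kept cells, and Chac1 at 3.85 CPM (15 UMIs) and 0.459 CPM (4 UMIs).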
